A study of Arabidopsis thaliana with 12 samples.

Results

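Transcript levels of fve-4 seedlings kept at 21 °C were compared with those of wild-type Columbia (Col) seedlings kept at 21 °C, which asks what loss of FVE does to the seedling transcriptome without warming. Genes entered the comparison when they reached at least 1 TPM (transcripts per 1000000) in at least 3 of the 6 libraries, which 19334 of 27655 genes in the deposited table did. The fve-4 group carried a mutant allele of FVE and the Col group was the unmutated wild type. Each group held 3 libraries of whole Arabidopsis thaliana seedlings, 7 days old, raised at 21 °C in short days (8 h light, 16 h dark). They stayed at 21 °C when seedlings for 3 further fve-4 and 3 further Col libraries were moved to 27 °C at ZT1 (hours after lights on), and all seedlings were harvested at ZT13, in the dark. Mannitol treatment, which the design also mentions, was not analysed here. The labels do not say that replicates were separately grown, so the p-values measure the spread between these libraries. They do not describe the molecular lesion of the allele either.

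FVE is a WD40-repeat protein of the MSI1 family that works with histone deacetylases and histone demethylase-like proteins at chromatin. It belongs to the autonomous pathway of flowering, which keeps the floral repressor gene FLC low independently of day length, and it is also known for a role in cold-responsive gene expression. The title of the series places it in a complex with the deacetylase HDA9 that acts on the histone variant H2A.Z in warm growth.

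Reads recovered behind the TPM values numbered 12506309 to 14554413 per library at 21 °C. The first principal component of the 6 libraries held 60.1% of the variance and parted the genotypes. The fve-4 replicate 1 library stood apart on the second component (12.4% of the variance), with a score of -19.8 where replicates 2 and 3 scored 10.1 and 12.1. Spearman correlations across genes were 0.9896 to 0.9931 within a genotype and 0.9749 to 0.9814 between genotypes. At the edge of the filter, 333 genes reached 1 TPM in exactly 3 libraries and had a median over genes of 1.08 mean TPM, and 294 genes just outside reached it in exactly 2, with a median of 0.837. A further limit of the filter is that 147 genes passed through the fve-4 libraries alone and 25 through the Col libraries alone, so these had to differ in that direction. MAF5, PI, FUS3 and CYP71A12, described below, passed through fve-4 alone, and CDF1 through Col alone.

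FVE (AT2G19520) checked the labels. Its level was 4.89, 5.48 and 5.08 TPM in fve-4, against 52.7, 51.8 and 50.3 TPM in Col. The groups lay far apart and no library carried the level of the other genotype. The difference in log2(TPM + 1) of FVE, fve-4 minus Col, was -3.10 ± 0.07 (SE; limma, Benjamini-Hochberg adjusted p = 3.85e-12).

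Genes for the proteins known or named as partners of FVE were nearly level between the genotypes. Of the 17 genes in that list, FVE included, 2 were called higher in fve-4 and 1 lower, and the median log2 difference was 0.02. The threshold for a call was an adjusted p under 0.05, and at that threshold 15.6% of all genes tested were called higher and 8.74% lower. HDA9 (AT3G44680) was at 19.2, 19.2 and 17.7 TPM in fve-4, against 18.0, 18.5 and 18.0 TPM in Col. These ranges overlapped, and the log2 difference of 0.04 ± 0.08 (SE) did not pass the test (adjusted p = 0.752). HDA5, a class II deacetylase reported to act with FVE on FLC, rose to 26.1 ± 1.4 TPM in fve-4, against 20.6 ± 0.41 TPM in Col (SD, n = 3 each; log2 difference 0.32). HDA19, a class I deacetylase, rose by 0.13 on the log2 scale (adjusted p = 0.0353), but without fve-4 replicate 1 its adjusted p was 0.127, and the call was also lost under each of these rescalings: median ratios, quantiles and limma-voom, and without fve-4 replicate 2 or any 1 of the Col libraries. HDA6, HOS15, FLD, LDL1, LDL2, AT3G52250, the cullin gene CUL4, its adaptor genes DDB1A and DDB1B and the FVE relatives MSI1, MSI2, MSI3 and MSI5 did not pass, with log2 differences between -0.09 (MSI1) and 0.15 (HDA6).

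**Figure D1:**
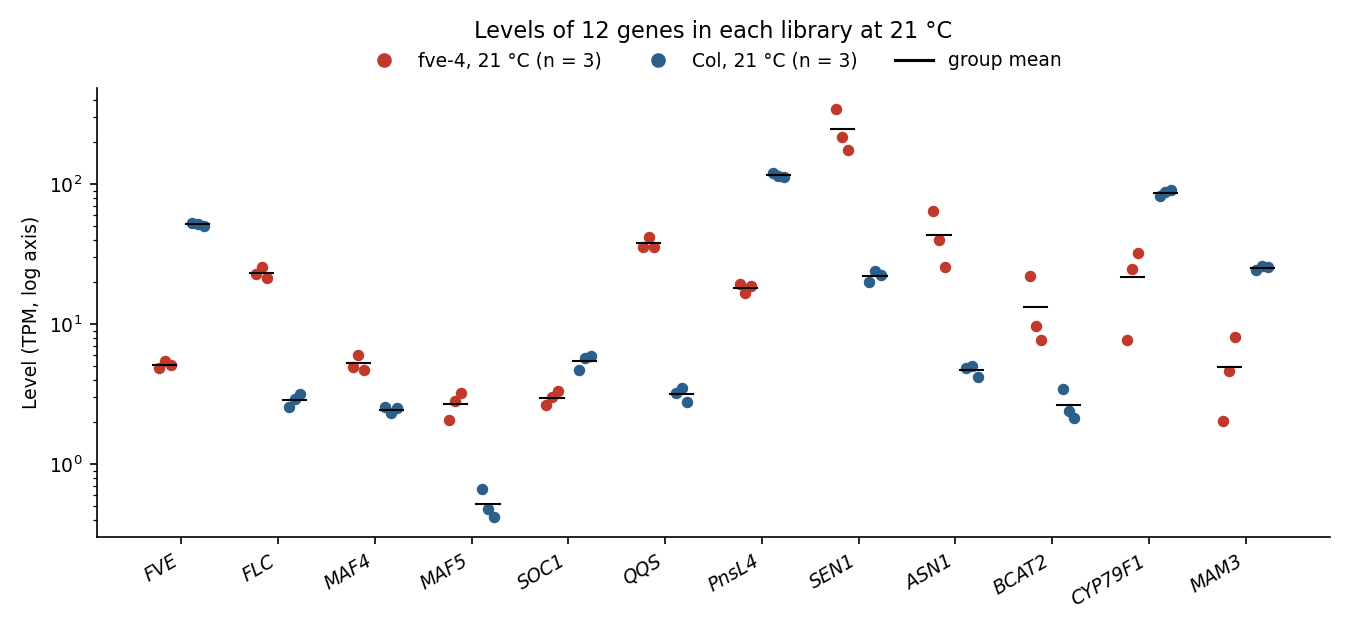
Levels of 12 genes in the 6 libraries at 21 °C, in TPM on a log axis, with fve-4 in red to the left of Col in blue; points are libraries and black lines are group means. FVE, PnsL4, CYP79F1 and MAM3 were lower in every fve-4 library than in any Col library, while FLC, QQS, SEN1 and ASN1 were higher in every fve-4 library.

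Across all genes tested, 3021 were called higher in fve-4 and 1690 lower, 24.4% together. Most of these differences were small, with a median size of 0.37 on the log2 scale among the called genes. Differences of at least 2-fold were found for 235 of the genes called higher and 74 of those called lower. The 3 fve-4 libraries lay entirely above the 3 Col libraries for 25.2% of the genes tested and entirely below them for 15.8%, 41.0% in all. The excess of rises over falls depended on how libraries were scaled: the share of called genes that were higher in fve-4 was 64.1% on the deposited scale, but 48.0% once libraries were rescaled by median ratios, 50.1% with quantiles equalized and 45.9% in limma-voom on the recovered reads. Differences of at least 2-fold counted 219 rises and 94 falls under median ratios, 190 rises and 118 falls with quantiles equalized and 375 rises and 147 falls with limma-voom. The genes that passed the filter through 1 genotype alone had to differ, and without them, a step chosen after seeing the data, 166 rises and 70 falls of at least 2-fold were left on the deposited scale, and 141 rises and 104 falls with quantiles equalized. Called genes were spread over all 5 chromosomes, with 15.3% to 16.2% of the tested genes higher and 8.5% to 9.09% lower on each.

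**Figure D2:**
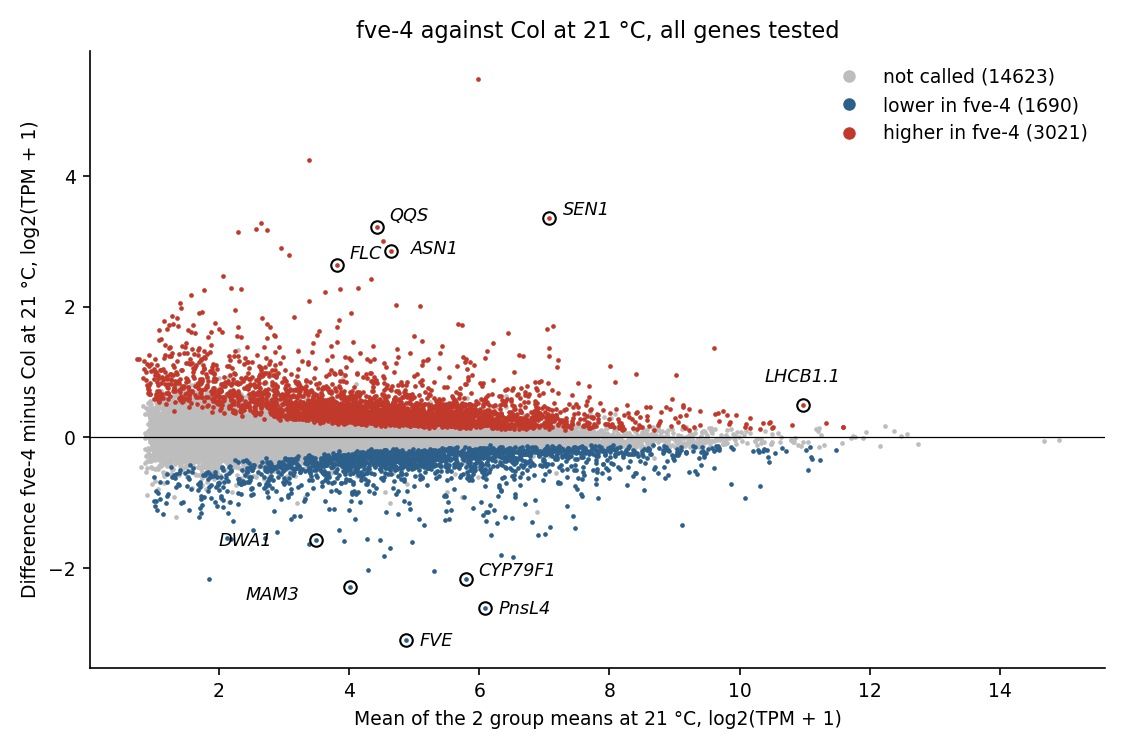
Difference between fve-4 and Col at 21 °C in log2(TPM + 1) for each of the 19334 genes tested, against the mean of both group means; red points were called higher in fve-4, blue points lower and grey points not called. SEN1, QQS, ASN1 and FLC stand among the largest rises, and FVE, PnsL4, MAM3 and CYP79F1 among the largest falls.

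The library that stood apart was the most extreme fve-4 library for most large falls, but not for most large rises. Of the 74 genes that fell at least 2-fold, 58 were lowest in fve-4 replicate 1 among the 3 fve-4 libraries, 10 in replicate 2 and 6 in replicate 3. Among the 235 that rose at least 2-fold, 93 were highest in replicate 1, 94 in replicate 2 and 48 in replicate 3. With fve-4 replicate 1 left out, 2237 genes were called higher and 1096 lower, which is 11.6% and 5.67% of those tested, and 218 of the 235 large rises and 68 of the 74 large falls were still called. Most other single libraries at 21 °C cost a similar number of calls. In all, 3333 genes were called without fve-4 replicate 1, 3403 without replicate 2 and 4235 without replicate 3. Without Col replicates 1, 2 and 3 the counts were 3573, 3584 and 3378.

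FLC (AT5G10140), the MADS-box repressor of flowering that FVE is known to hold down, was at 22.8, 25.5 and 21.3 TPM in fve-4, against 2.58, 2.93 and 3.18 TPM in Col. Every fve-4 library was far above every Col library, and the rise was 2.63 ± 0.10 on the log2 scale (SE, adjusted p = 1.67e-09). Its relatives did not all move. Among the 6 genes of the FLC clade, 4 rose and 0 fell, against 15.6% of all genes tested called higher and 8.74% called lower. The median log2 difference was 0.64, against 0.044 for all genes tested. However, 1 of the 4, MAF5, had to differ because it passed the filter through fve-4 alone.

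MAF5 (AT5G65080) was at 2.06, 2.84 and 3.23 TPM in fve-4, against 0.667, 0.477 and 0.423 TPM in Col. MAF4 (AT5G65070) was at 4.98, 6.05 and 4.75 TPM in fve-4, against 2.55, 2.31 and 2.504 TPM in Col. Neither gene's groups overlapped, and the log2 differences were 1.27 for MAF5 (adjusted p = 0.000226) and 0.85 for MAF4 (adjusted p = 0.000353). MAF2 rose to 28.4 ± 1.5 TPM in fve-4, against 20.8 ± 1.3 TPM in Col (SD, n = 3 each). MAF3, their neighbour in the same tandem cluster, had a log2 difference of 0.15 and FLM (also MAF1) one of 0.00, and neither passed. MAF2 to MAF5 are similar in sequence, so reads of one could be counted for another.

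The genes downstream of these repressors were low at this age. SOC1 (AT2G45660), a floral integrator that FLC represses, was at 2.65, 3.01 and 3.32 TPM in fve-4, against 4.71, 5.76 and 5.97 TPM in Col. The groups did not overlap and SOC1 fell by 0.70 on the log2 scale (adjusted p = 0.00812). SOC1 lost its call under 1 of the 23 alternatives in which it was tested (adjusted p = 0.0504). FT, the mobile flowering signal, was listed at 0 in 5 libraries and at 0.118 TPM in Col replicate 3, and was not tested. Of the 7 tested genes among floral promoters and SOC1-like genes, 2 rose and 1 fell (SOC1), and 12 more were below the filter. The shares over all genes tested were 15.6% called higher and 8.74% lower. The 2 that rose were FD, the bZIP partner of FT, at 3.91 ± 0.41 TPM in fve-4 and 2.21 ± 0.39 TPM in Col, and SPL3, at 9.19 ± 2.4 TPM in fve-4 and 5.41 ± 0.66 TPM in Col (SD, n = 3 each). Without fve-4 replicate 1 both missed the threshold, at adjusted p = 0.0543 for FD and adjusted p = 0.063 for SPL3, and 1 of them did without fve-4 replicate 2, Col replicate 1 or Col replicate 2. Among 12 genes of the autonomous pathway and other floral repressors, FCA and TEM2 rose, by 0.29 and 0.38 on the log2 scale, and SNZ, an AP2-like repressor, fell to 4.78 ± 0.93 TPM in fve-4, against 9.83 ± 0.71 TPM in Col. FCA lost its call without fve-4 replicate 3 (adjusted p = 0.0511) or Col replicate 3 (adjusted p = 0.0661).

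Transcripts of aliphatic glucosinolate synthesis were lower in fve-4 throughout. Glucosinolates are sulfur-rich defence compounds of the cabbage family, and the aliphatic ones are built from methionine by chain elongation in the plastid, conversion to the core structure and side-chain modification. All 17 genes of that list fell, with a median log2 difference of -1.20, and all 3 fve-4 libraries lay below all 3 Col libraries for each of them, against 15.8% of all genes tested. The summed level of the list was 582, 815 and 891 TPM in the fve-4 libraries, against 1534, 1618 and 1614 TPM in the Col libraries. A difference of at least 2-fold was reached by 13 of the 17.

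The R2R3-MYB activators of the pathway fell unequally. MYB28 (AT5G61420) was at 66.3, 77.3 and 72.3 TPM in fve-4, against 86.0, 92.2 and 87.3 TPM in Col, a log2 difference of -0.30. MYB29 (AT5G07690) was at 5.09, 9.47 and 7.40 TPM in fve-4, against 14.6, 19.4 and 15.2 TPM in Col, and fell by 1.09 on the log2 scale. MYB76, next to MYB29 in the genome, fell by 1.02.

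Chain elongation begins with BCAT4 (AT3G19710), a methionine aminotransferase, which was at 6.05, 18.7 and 23.6 TPM in fve-4, against 58.1, 63.7 and 60.8 TPM in Col. MAM3 (AT5G23020), a condensing enzyme of the cycle, was at 2.05, 4.67 and 8.14 TPM in fve-4, against 24.3, 26.1 and 25.6 TPM in Col. In both genes replicate 1 was the lowest of the fve-4 libraries and no fve-4 library reached the Col range. The log2 differences were -2.04 ± 0.34 for BCAT4 (SE, adjusted p = 0.000913) and -2.28 ± 0.31 for MAM3 (SE, adjusted p = 0.000246). MAM1, which resembles MAM3 so that reads could be shared, fell by 1.47, and IPMI1, a small subunit of the isomerase that is not among the 17 genes of the list, averaged 40.5 ± 13 TPM in fve-4 and 141 ± 2.5 TPM in Col (SD, n = 3 each). IMD1, the dehydrogenase of the cycle, fell by 1.37, the isomerase gene IIL1 by 0.52 and the plastid transporter gene BAT5 by 1.34 on the log2 scale.

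For the core structure, CYP79F1 (AT1G16410), the cytochrome P450 that makes aldoximes from elongated methionine, was at 7.75, 24.8 and 32.2 TPM in fve-4, against 82.5, 88.0 and 90.5 TPM in Col. This was a log2 difference of -2.17 ± 0.35 (SE, adjusted p = 0.000732), and -1.59 without fve-4 replicate 1 (adjusted p = 0.000128). CYP83A1 (AT4G13770), which acts on the aldoximes, was at 79.3, 110 and 128 TPM in fve-4, against 229, 240 and 249 TPM in Col. For both enzymes every fve-4 library was below every Col library, and replicate 1 was the lowest. CYP79F2, the near-identical neighbour of CYP79F1, fell by 1.103, the C-S lyase gene SUR1 by 0.91, the sulfotransferase genes SOT17 and SOT18 by 1.25 and 1.04 and AT2G31790 by 0.80 on the log2 scale. FMOGS-OX1, an S-oxygenase gene of side-chain modification, was at 4.16 ± 1.0 TPM in fve-4 and 11.2 ± 0.68 TPM in Col (SD, n = 3 each). With fve-4 replicate 1 left out all 17 genes of the list were still called lower. TGG2 (AT5G25980), a myrosinase that breaks glucosinolates down, was at 28.5, 39.2 and 37.8 TPM in fve-4, against 114, 123 and 134 TPM in Col, and AK3, an aspartate kinase of the route to methionine, fell by 1.69.

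Indole glucosinolates are made from tryptophan and share the later enzymes. Of their 5 tested genes 3 fell and 0 rose, against 8.74% of all genes tested called lower and 15.6% called higher. The median log2 difference was -0.86. CYP79B2 (AT4G39950), which opens the pathway, was at 57.7, 80.9 and 99.0 TPM in fve-4, against 157, 150 and 148 TPM in Col. Its groups did not overlap, and the log2 difference was -0.96 (adjusted p = 0.000728). CYP79B3 fell by 0.86 and CYP83B1 by 0.93, while the regulator genes MYB34 and MYB51 had log2 differences of -0.11 and 0.11 and did not pass.

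Genes induced by darkness and sugar starvation were higher in fve-4. Their products recycle carbon and nitrogen when sugar runs short and are under the energy-sensing kinase SnRK1. Of the 14 in the list, 11 rose and 0 fell, against 15.6% of all genes tested called higher and 8.74% called lower. The median log2 difference of these genes was 0.59. Their summed level was 2247, 1799 and 1535 TPM in fve-4, against 1098, 1063 and 972 TPM in Col. Replicate 1 was the highest fve-4 library for 10 of the 14 genes.

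SEN1 (AT4G35770), a marker of darkness and ageing, was at 346, 218 and 174 TPM in fve-4, against 20.04, 23.9 and 22.6 TPM in Col. ASN1 (AT3G47340), which makes asparagine for nitrogen transport, was at 64.1, 40.1 and 25.6 TPM in fve-4, against 4.90, 5.03 and 4.21 TPM in Col. Both genes were several times higher in the lowest fve-4 library than in the highest Col library. SEN1 rose by 3.36 ± 0.23 (SE, adjusted p = 1.22e-06) and ASN1 by 2.86 ± 0.24 (SE, adjusted p = 6.64e-06) on the log2 scale.

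BCAT2 (AT1G10070), which starts the breakdown of branched-chain amino acids, was at 22.1, 9.69 and 7.75 TPM in fve-4, against 3.46, 2.39 and 2.14 TPM in Col. It rose by 1.84 on the log2 scale with all libraries and by 1.42 without fve-4 replicate 1 (adjusted p = 0.000288). GDH2, a glutamate dehydrogenase, rose to 209 ± 22 TPM in fve-4, against 132 ± 8.8 TPM in Col (SD, n = 3 each), and AKINBETA1, a subunit of SnRK1, rose by 0.77 on the log2 scale. DIN10 (0.67), AT3G15450 (0.96), TPS8 (0.53), TPS9 (0.24), TPS11 (0.47) and MCCB (0.26) also rose, with log2 differences in brackets, and TPS5, TPS10 and EXL2 did not pass. Without fve-4 replicate 1, 9 of the 14 were called higher, TPS9 and MCCB having missed the threshold. UMAMIT33 (AT4G28040), an amino acid transporter-like gene outside the list, was at 31.5, 24.95 and 18.3 TPM in fve-4, against 5.65, 6.57 and 5.22 TPM in Col.

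**Figure D3:**
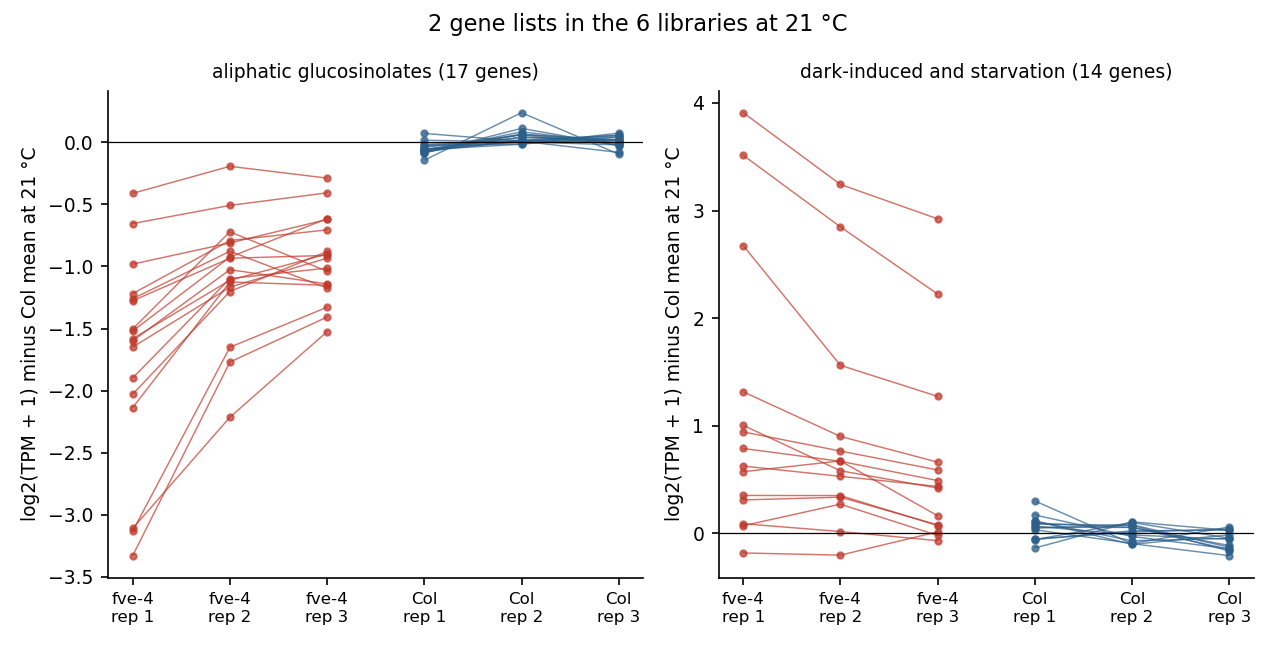
Each line is 1 gene in the 3 fve-4 libraries (red) or the 3 Col libraries (blue) at 21 °C, as log2(TPM + 1) minus the Col mean of that gene; replicates have no order. All 17 aliphatic glucosinolate genes lie below 0 in every fve-4 library, most of the 14 dark-induced and starvation genes lie above 0, and replicate 1 is the most extreme fve-4 library for most genes in both lists.

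Among the single largest changes, QQS (AT3G30720), an orphan gene of Arabidopsis that affects starch, was at 35.9, 41.9 and 35.6 TPM in fve-4, against 3.24, 3.49 and 2.79 TPM in Col. PnsL4 (AT4G39710), a lumenal subunit of the chloroplast NDH complex, was at 19.2, 16.8 and 18.8 TPM in fve-4, against 121, 115 and 113 TPM in Col. In both genes the 3 fve-4 libraries were close together, unlike those of BCAT4, MAM3, CYP79F1, SEN1 and ASN1. The log2 differences were 3.22 ± 0.10 for QQS (SE, adjusted p = 5.53e-10) and -2.61 ± 0.06 for PnsL4 (SE, adjusted p = 3.85e-12).

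CYP71A12 (AT2G30750), a cytochrome P450 of indolic defence compounds, was at 5.25, 9.98 and 7.04 TPM in fve-4, against 0.857, 0.691 and 0.573 TPM in Col, though a close copy can share its reads. GSTF7, a glutathione transferase, rose by 2.02, the nitrilase gene NIT2 by 1.73, the osmotin gene OSM34 by 1.71, the trypsin inhibitor gene KTI1 by 1.70 and the lipid acyl hydrolase gene PLA2A by 1.70 on the log2 scale. KTI1 was at 276, 211 and 157 TPM in fve-4, against 63.6, 62.9 and 64.0 TPM in Col. On the falling side, AAP4 (AT5G63850), an amino acid permease, was at 4.99, 6.13 and 9.44 TPM in fve-4, against 27.5, 33.2 and 29.8 TPM in Col. CYP82C4, a cytochrome P450 of iron-deficiency coumarins, fell by 1.82 and CSLB03, a cellulose synthase-like gene, by 1.64. DWA1 (AT2G19430), a DDB1-binding protein gene close to FVE, was at 4.88, 5.32 and 3.96 TPM in fve-4, against 16.0, 16.0 and 15.7 TPM in Col.

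Genes of cold acclimation did not move one way. Of the 14 tested, 3 rose and 5 fell, against 15.6% of all genes tested called higher and 8.74% called lower. The median log2 difference was -0.14. All 3 fve-4 libraries lay above all 3 Col libraries for 3 of the 14, against 25.2% of all genes tested. They lay below for 7, against 15.8%. The list summed to 1511 to 1779 TPM in fve-4 and 1973 to 2042 TPM in Col. The transcription factor genes CBF1, CBF2 and CBF3 were below the filter in both genotypes. RD29A (AT5G52310), a dehydration- and cold-induced gene, was at 25.7, 31.3 and 30.4 TPM in fve-4, against 62.1, 65.6 and 63.3 TPM in Col, a log2 difference of -1.105 (adjusted p = 4.83e-05). COR15A (AT2G42540), a chloroplast protectant, was at 127, 191 and 189 TPM in fve-4, against 239, 290 and 295 TPM in Col. It fell by 0.72 on the log2 scale (adjusted p = 0.046), and by 0.53 without fve-4 replicate 1 (adjusted p = 0.179), and it lost the call without any other 1 of the libraries at 21 °C. KIN2 fell to 268 ± 35 TPM in fve-4, against 467 ± 9.0 TPM in Col (SD, n = 3 each), COR413-PM1 fell by 0.25 and COR413IM1 by 0.56, whereas LTI30 and ZAT10 rose by 0.64 and 0.81 and COR47 by 0.18. Without fve-4 replicate 1, 1 of the 14 was called higher and 4 lower, and 0 were called higher without fve-4 replicate 2, Col replicate 2 or Col replicate 3.

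Of 9 abscisic acid and drought genes 2 rose and 2 fell, against 15.6% of all genes tested called higher and 8.74% called lower. RD22, a drought-induced gene, fell by 0.61 on the log2 scale. NCED3, the controlling enzyme of abscisic acid synthesis, fell by 0.38, and the phosphatase gene ABI1 rose by 0.22. NCED3 lost its call without any 1 of the 3 fve-4 libraries, Col replicate 1 or Col replicate 3 (adjusted p = 0.0641 without fve-4 replicate 1), and without Col replicate 3, 0 genes of this list were called higher. Among 9 heat-shock genes 2 rose and 2 fell, against the same shares of all genes tested. HSP18.2 (AT5G59720), a small chaperone, was at 6.54, 5.06 and 7.53 TPM in fve-4, against 2.02, 1.67 and 2.84 TPM in Col, and HSFA7A, a heat-shock factor, rose by 0.78. HSC70-1 (AT5G02500), an abundant cytosolic chaperone, fell to 1750 ± 131 TPM in fve-4, against 2478 ± 91 TPM in Col (SD, n = 3 each). The other gene that fell, HSP70, lost its call without fve-4 replicate 1 or 3 or any 1 of the 3 Col libraries (adjusted p = 0.129 without fve-4 replicate 1).

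Of 21 PIF factors and targets, which govern growth in warmth and shade, 1 rose and 5 fell at 21 °C, against 15.6% of all genes tested called higher and 8.74% called lower, and their median log2 difference was 0.08. The falls numbered 2 without fve-4 replicate 1 or fve-4 replicate 2 and 3 without Col replicate 2. PIF4 (AT2G43010), the transcription factor at the centre of warm growth, was at 7.65, 7.96 and 6.85 TPM in fve-4, against 3.31, 5.18 and 5.79 TPM in Col. It rose by 0.58 on the log2 scale (adjusted p = 0.0182), with an adjusted p of 0.0546 without fve-4 replicate 1, 0.0625 without fve-4 replicate 2 and 0.0693 without Col replicate 1. With limma-voom 0 genes of this list were called higher, and the highest adjusted p of PIF4 under any alternative was 0.0851. IAA29 (AT4G32280), an auxin-response repressor and PIF4 target, was at 1.93, 1.16 and 2.06 TPM in fve-4, against 6.40, 4.45 and 4.32 TPM in Col, a log2 difference of -1.16. HFR1, an antagonist of PIF proteins, fell by 0.73, and YUC2, an auxin synthesis gene, by 0.47 (adjusted p = 0.0508 without fve-4 replicate 1), while YUC8 was at 3.15 ± 0.83 TPM in fve-4 and 2.91 ± 0.73 TPM in Col (SD, n = 3 each) and did not pass (adjusted p = 0.772).

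Of 19 auxin-response genes 2 rose and 3 fell. For comparison with the lists of this paragraph, 15.6% of all genes tested were called higher and 8.74% lower. GH3.6, which conjugates auxin, fell by 0.33, SAUR21 by 0.72 and IAA2 rose by 0.17 on the log2 scale, and without fve-4 replicate 1 the adjusted p was 0.095 for SAUR21, one of a cluster of similar genes, and 0.0977 for IAA2. That left 1 rise and 1 fall in the list, and 0 rises were called without fve-4 replicate 2 or Col replicate 3. Under median ratios 0 rises were called either, with IAA2 at an adjusted p of 0.156. Of 4 gibberellin genes 1 rose and 1 fell: GA3OX1, which makes active gibberellin, was at 5.10 ± 0.87 TPM in fve-4 and 8.93 ± 0.33 TPM in Col, and GA2OX6, which inactivates it, was at 5.44 ± 0.56 TPM in fve-4 and 3.64 ± 0.25 TPM in Col (SD, n = 3 each). Among 14 circadian clock genes 5 rose and 1 fell, and without fve-4 replicate 1 or Col replicate 3 these counts were 3 and 0. With quantiles equalized or with limma-voom they were 3 and 1. The evening complex gene ELF3 rose by 0.33, LUX by 0.28, ELF4 by 0.32 and TOC1 by 0.31, LNK2 rose by 0.52 and CDF1, which restrains CONSTANS, fell by 0.69 on the log2 scale. LUX lost its call under 3 of 24 alternatives (highest adjusted p = 0.101). LNK2, ELF4 and CDF1 were the calls lost without fve-4 replicate 1, and CDF1 had to differ because it passed the filter through Col alone. Of 9 cell-cycle genes 0 rose and 3 fell, namely KN, a syntaxin of cell division (-0.42), PCNA1, a replication clamp (-0.37), and CDKB1;1, a mitotic kinase (-0.54), and only KN was still called without fve-4 replicate 1, Col replicate 1 or Col replicate 2.

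Of the 8 salicylic acid defence genes tested, 4 rose and 0 fell, and 3 rose under median ratios, with quantiles equalized or with limma-voom. For comparison with this and the jasmonate list, 15.6% of all genes tested were called higher and 8.74% lower. The median log2 difference of the salicylic acid list was 0.38. EDS1 (AT3G48090), which relays immune receptor signals, was at 25.7, 24.8 and 24.8 TPM in fve-4, against 19.9, 18.5 and 19.7 TPM in Col. WRKY70 rose to 9.17 ± 3.0 TPM in fve-4, against 4.52 ± 0.51 TPM in Col (SD, n = 3 each), SAG101, a partner of EDS1, by 0.43 and NPR1 by 0.23 on the log2 scale (NPR1 lost its call without any 1 of the 6 libraries, at adjusted p = 0.0563 to 0.148), and PR1 and PR2 were under the filter. Of 11 jasmonate genes 1 rose and 4 fell. VSP2 (AT5G24770), a vegetative storage protein induced by jasmonate, was at 49.9, 51.0 and 49.7 TPM in fve-4, against 16.8, 18.3 and 17.41 TPM in Col, a log2 difference of 1.47 (adjusted p = 0.000254). The synthesis genes AOS and OPR3 fell by 0.56 and 0.30, the repressor gene JAZ9 by 0.65 and ST2A, a jasmonate sulfotransferase, by 0.40 on the log2 scale, with OPR3 at an adjusted p of 0.0722 without fve-4 replicate 1.

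In the flavonoid and anthocyanin list 1 of 15 rose and 4 fell. For comparison with the 3 lists of this paragraph, 15.6% of all genes tested were called higher and 8.74% lower. MYBL2, a repressor of anthocyanin synthesis, rose to 8.10 ± 1.6 TPM in fve-4, against 4.04 ± 0.88 TPM in Col, and MYB111, an activator of flavonol synthesis, fell to 1.78 ± 0.45 TPM in fve-4, against 3.59 ± 0.35 TPM in Col (SD, n = 3 each), while the hydroxylase gene TT7 fell by 0.79 on the log2 scale. The falls numbered 2 without fve-4 replicate 1, Col replicate 1 or Col replicate 3, and 1, MYB111, without fve-4 replicate 2 or Col replicate 2. Of 13 iron genes 2 rose and 3 fell. FER1, an iron-storage ferritin, and BHLH101, a regulator of iron deficiency responses, rose by 0.64 and 0.72, and FER3 fell by 0.21. Of the 3 iron genes that fell, 1 (FER3) was called without fve-4 replicate 1 or Col replicate 1 and 0 without Col replicate 3. Of 19 photosynthesis genes 3 rose and 5 fell, by small amounts: LHCB5 fell by 0.19, PSBP1 by 0.20 and LHCB1.1, one of 3 similar antenna genes, rose by 0.50 on the log2 scale. Under median ratios 1 rose and 5 fell. The falls numbered 3 without fve-4 replicate 1, Col replicate 2 or Col replicate 3. The summed level of that list was 88690 to 90920 TPM in fve-4 and 90090 to 94450 TPM in Col.

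Genes in the H2A.Z, Polycomb and DNA methylation lists moved by small amounts. The linker histone gene HIS1-3, outside these lists, differed more and is given under the other observations. Of 10 genes for H2A.Z and its deposition, 2 rose and 0 fell, against 15.6% of all genes tested called higher and 8.74% called lower. Under median ratios or with quantiles equalized 2 rose and 1 fell, and with limma-voom 1 rose and 1 fell. HTA9 (AT1G52740), an H2A.Z histone, was at 297, 257 and 267 TPM in fve-4, against 219, 197 and 199 TPM in Col, a log2 difference of 0.41 (adjusted p = 0.000209). SEF, a subunit of the SWR1 complex that deposits H2A.Z, rose by 0.33 (adjusted p = 0.0749 without fve-4 replicate 2, 0.0639 without Col replicate 2 and at most 0.121 under any alternative). The core genes ARP6 and PIE1 had log2 differences of 0.18 and -0.02 and did not pass. Of 9 Polycomb genes 2 rose (VEL1 by 0.34 and LHP1 by 0.27) and 0 fell. In the DNA methylation list 1 of 12 rose and 2 fell: the demethylase gene ROS1 fell to 8.36 ± 0.74 TPM in fve-4, against 12.2 ± 0.79 TPM in Col (SD, n = 3 each), the methyltransferase gene CMT3 fell by 0.31 and the demethylase gene DME rose by 0.27 on the log2 scale. DME lost its call without fve-4 replicate 2 or 3 or Col replicate 1 or 3, at adjusted p = 0.0946 to 0.124. The call was also lost under median ratios (adjusted p = 0.0649).

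In whole seedlings, fewer cells of a type and less RNA per cell cannot be told apart. The marker counts below stand beside 15.6% of all genes tested called higher and 8.74% called lower. Of 14 root markers 0 rose and 1 fell, THAS1 of thalianol synthesis (adjusted p = 0.0481, and 0.184 without fve-4 replicate 1), and the list summed to 190 to 244 TPM in fve-4 and 221 to 236 TPM in Col. Stomatal and vascular markers summed to 197 to 229 TPM in fve-4 and 235 to 249 TPM in Col, and 1 of 5 fell, the phloem sucrose transporter gene SUC2 (-0.25). Floral organ and meristem genes summed to 24.1 to 27.1 TPM in fve-4 and 22.8 to 24.1 TPM in Col, and 2 of 4 rose, PI by 0.91 and KNAT6 by 0.39. Of 3 seed maturation genes tested, FUS3 rose by 1.01 and ABI3 fell by 0.58. PI and FUS3 had to differ because they passed the filter through fve-4 alone, and without fve-4 replicate 1 the calls were lost for KNAT6 (adjusted p = 0.0946) and ABI3 (adjusted p = 0.137). Several other single libraries also ended the calls of THAS1, KNAT6 and ABI3 when left out. The storage genes CRA1 (8.26 TPM), CRU3 (4.93 TPM) and OLEO1 (11.1 TPM) were highest in fve-4 replicate 2. That list summed to 28.4 TPM in fve-4 replicate 2, to 3.80 and 4.03 TPM in the other fve-4 libraries and to 5.09 to 7.05 TPM in Col. Of 8 reference genes 0 rose and 1, ACT7, fell, by 0.26 on the log2 scale. The part of these marker levels in the results above was not tested.

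**Figure D4:**
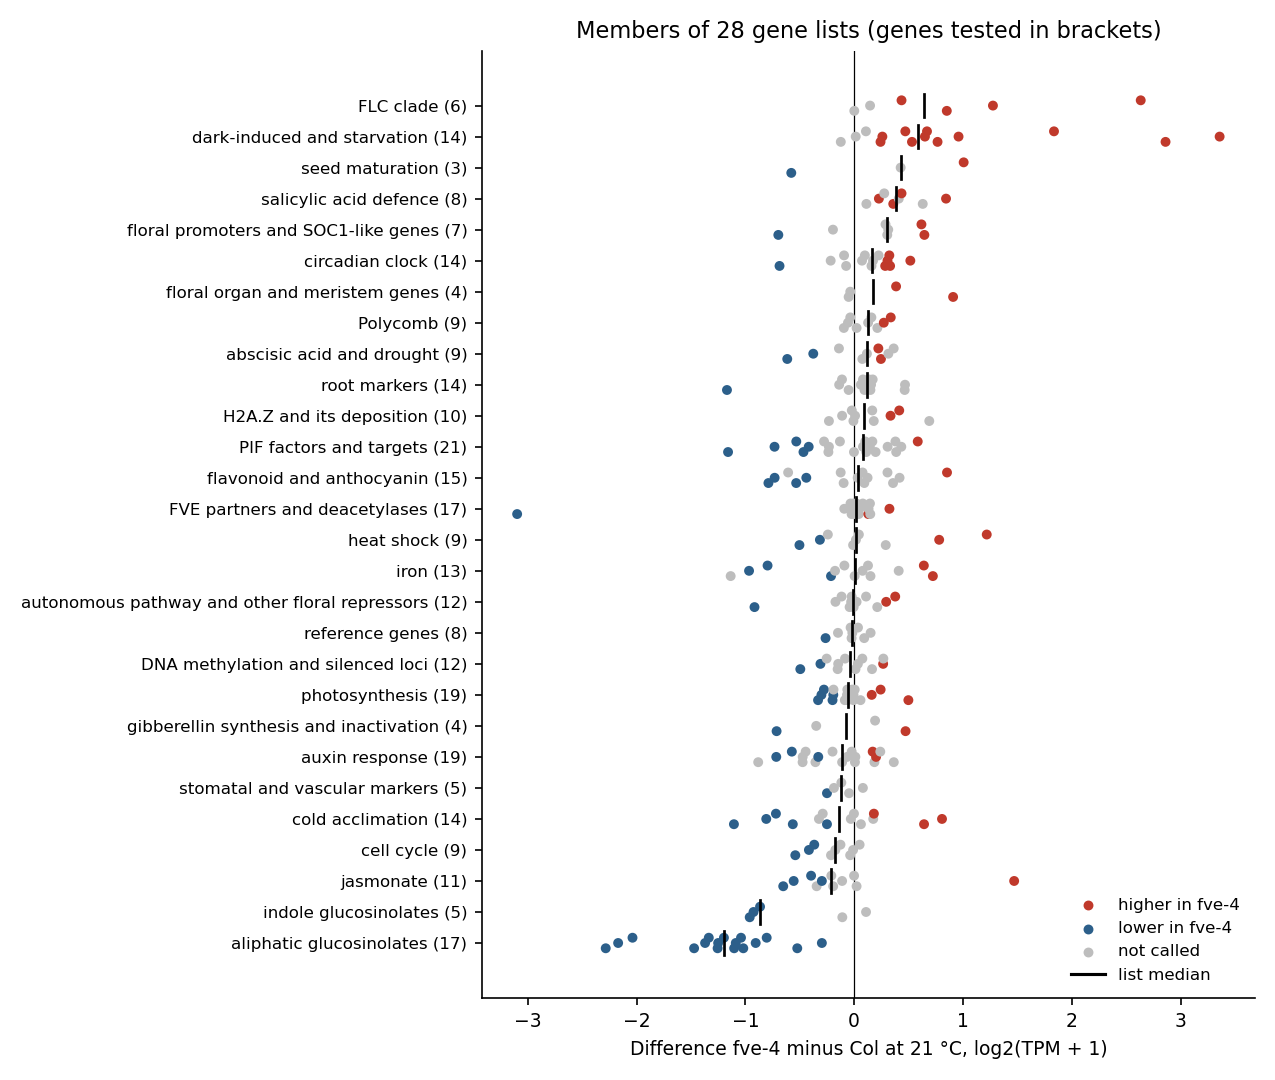
Difference between fve-4 and Col at 21 °C in log2(TPM + 1) for the tested members of 28 gene lists, 1 point per gene, coloured by call, with the list median as a black line. The aliphatic glucosinolate list has the lowest median (-1.20), and the FLC clade (0.64) and the dark-induced and starvation list (0.59) have the highest.

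The same genotypes at 27 °C, in 6 other libraries, gave each difference a second reading. The 2 contrasts share no library, but 1 model gave both, with its spread estimated over all 12 libraries. At 27 °C 38.8% of the same genes were called, 21.0% higher in fve-4 and 17.9% lower, and the difference between the temperatures itself (the interaction) was called for 33.2%. Of the 3021 genes higher at 21 °C, 689 (22.8%) were higher at 27 °C and 792 (26.2%) were lower. Of the 1690 genes lower at 21 °C, 373 (22.1%) were lower at 27 °C and 514 (30.4%) were higher. From the other side, the 689 shared rises and the 373 shared falls stand against 4053 rises and 3453 falls at 27 °C.

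The large changes parted more clearly. Of the 235 rises of at least 2-fold, 134 were also called higher at 27 °C and 24 (10.2%) lower. Of the 74 falls of at least 2-fold, 13 were also lower and 47 (63.5%) were higher. These rises and falls include genes that had to differ because they passed the filter through a single genotype. Without such genes 166 rises and 70 falls were left, and their calls at 27 °C were not counted separately. The aliphatic glucosinolate list alone held 13 of the 74 falls, so the falls are not all separate cases.

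FLC, QQS, PnsL4 and FVE kept their direction. FLC was at 28.9 TPM in fve-4 and 2.86 TPM in Col on average at 27 °C, QQS at 47.5 TPM in fve-4 and 4.92 TPM in Col, and PnsL4 at 20.9 TPM in fve-4 and 76.1 TPM in Col. The interaction was not called for FLC (adjusted p = 0.0878) or QQS (adjusted p = 0.391), and was called for PnsL4 (adjusted p = 1.85e-05), whose fall was smaller at 27 °C. MAF4, MAF5, SOC1 and DWA1 also differed in the same direction at both temperatures, with the interaction called for MAF5 (adjusted p = 0.0473). Not all of the FLC clade did so. MAF2, higher at 21 °C, was not called at 27 °C (log2 difference -0.17), and its interaction was called (adjusted p = 0.00151). FLM, level at 21 °C, was called lower at 27 °C (-0.30).

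The glucosinolate genes did not. All 17 aliphatic genes were called higher in fve-4 at 27 °C, with a median log2 difference of 1.97, and the interaction was called for all 17. CYP79F1 averaged 25.7 TPM in fve-4 and 0.837 TPM in Col at 27 °C, and 21.6 TPM in fve-4 and 87.0 TPM in Col at 21 °C. BCAT4 averaged 33.4 TPM in fve-4 and 1.997 TPM in Col at 27 °C, and 16.1 TPM in fve-4 and 60.9 TPM in Col at 21 °C. MAM3 averaged 11.44 TPM in fve-4 and 2.18 TPM in Col at 27 °C, and 4.95 TPM in fve-4 and 25.3 TPM in Col at 21 °C. In each of these genes the Col mean was the higher one at 21 °C and the fve-4 mean at 27 °C. Of the 14 dark-induced and starvation genes, 0 were higher and 9 were lower in fve-4 at 27 °C, and the interaction was called for 13. SEN1 averaged 651 TPM in fve-4 and 682 TPM in Col at 27 °C, and BCAT2 averaged 8.19 TPM in fve-4 and 30.4 TPM in Col.

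**Figure D5:**
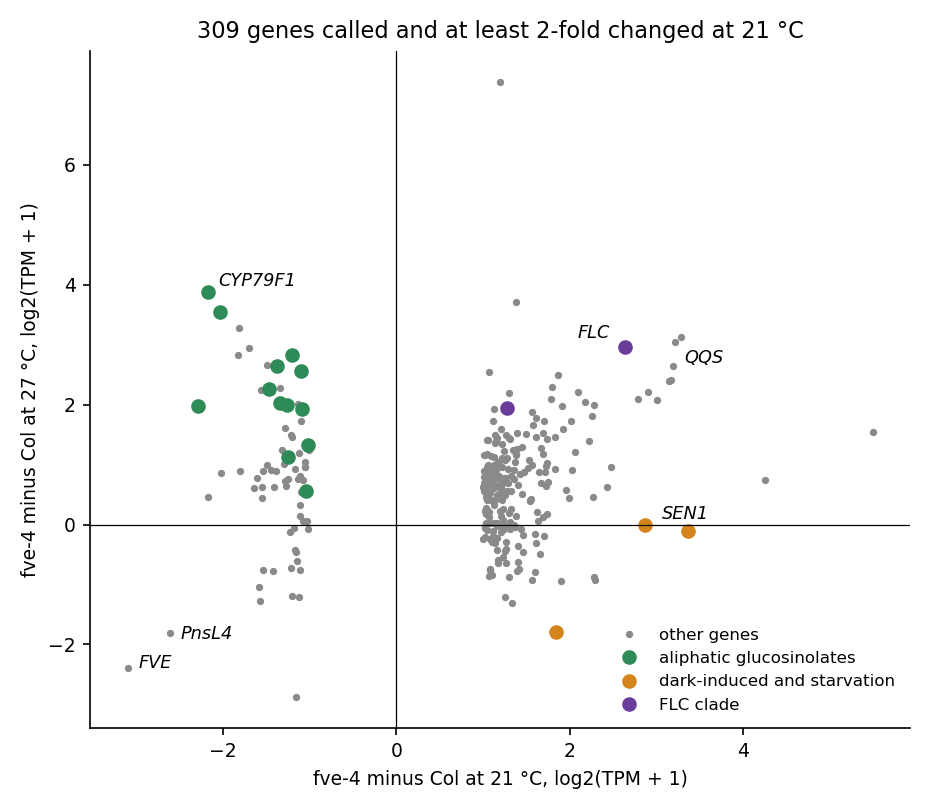
For the 309 genes called and changed at least 2-fold at 21 °C, the difference fve-4 minus Col in log2(TPM + 1) at 27 °C against that at 21 °C; colours mark members of 3 gene lists. FLC, QQS, FVE and PnsL4 lie on the same side of 0 at both temperatures, while the aliphatic glucosinolate genes lie below 0 at 21 °C and above 0 at 27 °C.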

How the data were processed

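Messenger RNA of 12 libraries was given as TPM in 1 table deposited by the authors. The columns are named as gene counts, yet each totals 1000000. The submitters' processing notes list DESeq2 1.26.0, HISAT2 2.1.10 and fastp 0.20.1 and the build TAIR10, with no role stated. For 99.98% of genes with a RefSeq gene span, TPM times that span gave whole reads (tolerance 0.01), so levels are per gene span, introns included. Names came from RefSeq TAIR10.1, a differently named build, so no coordinates or sequences are given.

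Differences were tested two-sided by limma 3.58.1 (R 4.3.3), applied to log2(TPM + 1) in 1 model of 4 group means over 12 libraries, 8 residual degrees of freedom, a mean-variance trend and Benjamini-Hochberg adjustment over all 19334 genes tested. The fit was tested on simulated data. The pseudocount shrinks fold changes of low genes. The members and the 28 gene lists (366 entries) were chosen with earlier results of these data known, and lists were described by counts and medians, without a test. Named genes were all members of the FVE partner and FLC lists, SOC1, FT, COR15A, PIF4, YUC8 and IAA29, up to 3 called genes of each other list by smallest adjusted p, and the 12 largest rises and 12 largest falls among called genes that have a symbol, average 5 TPM or more in the higher group and show no overlap between libraries. Other genes of the lists, and those under the other observations, were named after their values were seen. Alternatives changed the pseudocount, filter, scaling, variance trend, threshold, libraries in the fit, replicate block and single libraries, and used limma-voom on recovered reads. A planned motif search of promoters was tried but is not reported, because the reference build was not that of the files. Tables and figures were made with Python 3.11.15, numpy 2.4.6, pandas 2.3.3 and matplotlib 3.10.9.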

Additional observations from a re-analysis of the deposited data

Results flagged for a closer look

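For 75 of the 113 named genes tested, the genotype difference at 27 °C differed from that at 21 °C by limma's interaction test. The interaction was called for 33.2% of all genes tested. It was called for 60.0% of all genes higher at 21 °C and for 64.1% of all genes lower there, and most named genes were chosen from these. The values below are that difference on the log2 scale, (fve-4 minus Col at 27 °C) minus (fve-4 minus Col at 21 °C), so a positive value means that fve-4 stood higher relative to Col at 27 °C than at 21 °C. The value contains the 21 °C difference, by which most of these genes were chosen. Genes chosen as low in fve-4 at 21 °C are thereby drawn to positive values, and those chosen as high to negative values. The signs below are therefore no separate result. No explanation was tested.

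Among genes lower in fve-4 at 21 °C, positive values were found for genes of glucosinolate synthesis or breakdown and the methionine route: CYP79F1 6.04, BCAT4 5.58, IPMI1 4.66, AK3 4.63, MAM3 4.25, TGG2 2.69, AT2G31790 1.61, SOT18 1.60, SUR1 1.45, CYP79B2 1.58, CYP83B1 1.27 and CYP79B3 1.14. Outside these, CYP82C4 was at 5.09, AAP4 at 2.88 and CSLB03 at 2.25. Except CYP79B3, which was not called there, all these genes were called higher in fve-4 at 27 °C.

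Among genes higher in fve-4 at 21 °C, negative values were found for BCAT2 -3.63, SEN1 -3.471, ASN1 -2.88, UMAMIT33 -2.85, KTI1 -1.89, CYP71A12 -1.81, PLA2A -1.57, GSTF7 -1.11, GDH2 -1.06, OSM34 -0.83 and FER1 -0.83. Growth, light and clock genes, higher, lower or not called at 21 °C, and the jasmonate gene ST2A were also negative: ST2A -2.24, YUC8 -2.00, IAA29 -1.72, IAA2 -1.499, PIF4 -1.39, GA2OX6 -1.33, HFR1 -1.16, YUC2 -0.98, LUX -0.87, SAUR21 -0.83, ELF3 -0.72 and TOC1 -0.64.

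Stress, defence and pigment genes were of either sign. COR15A was at 1.60, AOS at 1.17, WRKY70 at 1.04, TT7 at 0.88, HSC70-1 at 0.72, KIN2 at 0.71, RD22 at 0.57, NCED3 at -0.45, HSFA7A at -1.09 and MYBL2 at -1.57. Cell-cycle, tissue and hormone genes included THAS1 2.09, GA3OX1 1.18, PCNA1 0.93, CDKB1;1 0.77, KN 0.35, ACT7 0.23 and KNAT6 -0.74.

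Among FVE, flowering and chromatin genes, PnsL4 set aside at 0.79, the values were FVE 0.70, MAF5 0.68, CMT3 0.56, ROS1 0.44, MSI1 0.32, CUL4 -0.21, DDB1A -0.26, AT3G52250 -0.28, FLM -0.31, HDA5 -0.33, DME -0.33, HTA9 -0.34, LHP1 -0.35, SEF -0.42, MAF2 -0.60, VEL1 -0.61, FCA -0.89, SPL3 -1.05 and TEM2 -1.07.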

How the results depend on the processing

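Of 96 named genes called at 21 °C, 69 were called in the same direction under every one of 24 alternatives in which they were tested and 27 lost the call under at least 1, with 0 reversed. At an adjusted p under 0.01, 2338 genes were called at 21 °C (1563 higher, 775 lower), 4589 at 27 °C (2469 higher, 2120 lower) and 3806 for the interaction (1659 positive, 2147 negative). With limma-voom on recovered reads 2696 genes were lower at 21 °C. Leaving out single libraries gave 3333 to 5068 calls at 21 °C, with 2123 to 3254 higher and 1096 to 1814 lower; the lowest count of falls was without fve-4 replicate 1 and the lowest count of rises without fve-4 replicate 2. At 27 °C these ranges were 5811 to 7604 calls (3083 to 4094 higher, 2716 to 3510 lower), and for the interaction 5491 to 6206 (2408 to 2762 positive, 2981 to 3470 negative). Of the named genes not called, 9 changed sign. After median-ratio rescaling, quantile normalization and limma-voom the log2 differences were -0.008, -0.016 and -0.007 for HDA9, -0.031, -0.034 and -0.034 for AT3G52250, -0.002, -0.011 and 0 for LDL1, -0.041, -0.038 and -0.039 for MSI3, -0.028, -0.040 and -0.028 for DDB1B and -0.049, -0.054 and -0.053 for FLM, and YUC8 was at -0.031 after quantile normalization. Leaving out single libraries turned AT3G52250 (-0.01 to 0.048), MSI3 (-0.067 to 0.07), MSI5 (-0.084 to 0.098), CUL4 (-0.06 to 0.015), DDB1B (-0.028 to 0.053), FLM (-0.046 to 0.067) and YUC8 (-0.063 to 0.255). The causes were not tested. Same-numbered libraries did not deviate together: across genes their correlations were -0.028, 0.009 and 0.019, and those of all pairs lay between -0.038 and 0.029. These correlations cannot show whether same-numbered libraries were grown or harvested together, and the labels do not say. With the replicate block 4642 genes were called, 2993 higher and 1649 lower. With 3 libraries a group, and few reads behind genes near 1 TPM, small differences of low genes were not detectable.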

Other observations

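Some gene groups outside the lists were looked at after their values were seen, and no test of a group was made. Of the copper/zinc superoxide dismutase genes, CSD1 and CSD2 were called higher in fve-4 at 21 °C, as was CCS, the gene of their copper chaperone, while CSD3 (log2 difference 0.01) did not pass. CSD2 averaged 200 TPM in fve-4 and 61.9 TPM in Col, CSD1 144 TPM in fve-4 and 58.8 TPM in Col, and CCS 75.5 TPM in fve-4 and 30.7 TPM in Col, with log2 differences of 1.66, 1.25 and 1.23 that were all called. At 27 °C CSD1 (-0.02) was not called and CSD2 (-0.49) and CCS (-0.54) were lower. Genes of sulfate activation were of either sign: AKN2 (-1.29), APK (-1.14), APS3 (-0.82) and APS1 (-0.62) were called lower in fve-4 at 21 °C and APS4 (0.33) higher, with log2 differences in brackets, and APS2 (-0.16), APK3 (0.04) and APK4 (0.18) did not pass, while APR2 (0.30) and APR3 (0.34) of sulfate reduction did not pass. PR4 averaged 94.0 TPM in fve-4 and 39.8 TPM in Col, and the linker histone gene HIS1-3 averaged 130 TPM in fve-4 and 42.0 TPM in Col. Among other subunit genes of the chloroplast NDH complex, PnsL1 (-0.02) and PnsL2 (0.03) did not pass and PnsL3 (-0.19) was lower.

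Of 91 genes at 0 TPM in all 3 Col libraries and above 0 in all 3 fve-4 libraries at 21 °C, 7 passed the filter, through the fve-4 libraries alone. AT4G09880 averaged 7.84 TPM in fve-4 at 21 °C, and 5.08 TPM in fve-4 against 0.155 TPM in Col at 27 °C. AT1G34440 averaged 2.48 TPM in fve-4 at 21 °C. The reverse pattern, 0 TPM in all fve-4 libraries and above 0 in all Col libraries, was found for 19 genes, of which 0 passed the filter. Among the 40 tested genes nearest to FVE, 20 on either side, 3 were higher and 6 lower in fve-4 at 21 °C, DWA1 having the largest difference. Of all genes tested, 15.6% were called higher and 8.74% lower. The window was chosen after its values were seen.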
